A study of Mus musculus with 4 samples.

Results

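The genes described here are 10 immune genes of the mouse X chromosome, Il2rg, Cybb, Btk, Cd40lg, Foxp3, Tlr7, Tlr8, Cxcr3, Was and Irak1, chosen by symbol from a table of 22691 genes, 952 of them on the X. By general knowledge 9 of them are used mainly by blood cells, and the other, Irak1, is used by most cell types, fibroblasts included. The table gives the level of trimethylated lysine 27 of histone H3 (H3K27me3), measured by chromatin immunoprecipitation and sequencing (ChIP-seq) in cultured fibroblasts of female C57BL6/J fetuses at stage E13.5. Cells homozygous for the MD1 allele of Smchd1 (Smchd1 MD1/MD1, here MD1), which lack SmcHD1 per the series' design, were set beside Smchd1 +/+ cells (WT). Each genotype had 1 ChIP library, made with the mouse monoclonal antibody CMA323, and 1 input library without antibody. With 1 library of each kind there is no replicate error, no test between genotypes and no p-value, and the depth of the libraries is unknown. The labels do not say how many fetuses went into a culture.

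H3K27me3 is deposited by Polycomb repressive complex 2 and accompanies gene silencing. In female cells it coats the inactive X chromosome, whereas the active X carries it mainly at genes silenced by Polycomb, so an X-linked value averages both chromosomes. SmcHD1 is a noncanonical SMC protein that accumulates on the inactive X and is needed to keep many of its genes silent. Many genes of lymphocytes and macrophages lie on the X, and mutations in several of the 10 cause X-linked immunodeficiency in boys. Fibroblasts have no known use for T cell or B cell receptors and ligands, so these genes would be silent on both X chromosomes, and Irak1 on the inactive X alone. RNA was not measured here.

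Promoter sequence separates Irak1 from most of the blood-restricted genes, and 5 promoters are shown for that reason. Each is the stretch of 250 bases before a transcription start, from RefSeq on build GRCm38.p6, written 5′ to 3′ on the strand of the gene, with every CpG (the letters CG, which read the same on both strands) in capitals. Med12, a Mediator subunit gene, is the nearest gene after Il2rg on the X and is described with the neighbours.
Irak1, chrX:74023922-74024171, minus strand: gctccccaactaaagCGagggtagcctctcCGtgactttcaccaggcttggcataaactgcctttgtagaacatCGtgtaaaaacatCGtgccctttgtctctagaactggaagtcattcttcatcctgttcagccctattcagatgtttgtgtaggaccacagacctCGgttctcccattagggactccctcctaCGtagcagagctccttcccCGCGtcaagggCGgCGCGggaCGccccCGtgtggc
Med12, chrX:101273841-101274090, plus strand: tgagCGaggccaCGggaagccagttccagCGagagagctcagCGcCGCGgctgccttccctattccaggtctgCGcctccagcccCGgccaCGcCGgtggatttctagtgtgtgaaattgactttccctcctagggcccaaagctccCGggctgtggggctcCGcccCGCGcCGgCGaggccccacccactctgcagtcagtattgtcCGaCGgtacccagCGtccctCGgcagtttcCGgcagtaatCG
Il2rg, chrX:101268256-101268505, minus strand: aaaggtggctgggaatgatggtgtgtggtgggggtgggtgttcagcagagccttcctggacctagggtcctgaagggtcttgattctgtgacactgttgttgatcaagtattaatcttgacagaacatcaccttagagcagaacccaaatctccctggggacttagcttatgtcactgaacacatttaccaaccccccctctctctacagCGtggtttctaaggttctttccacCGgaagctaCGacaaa
Was, chrX:8090492-8090741, minus strand: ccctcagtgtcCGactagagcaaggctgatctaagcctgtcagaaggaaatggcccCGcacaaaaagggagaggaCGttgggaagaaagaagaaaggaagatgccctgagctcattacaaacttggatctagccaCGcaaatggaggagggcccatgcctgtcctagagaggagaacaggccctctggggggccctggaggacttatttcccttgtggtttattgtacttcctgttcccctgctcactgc
Cxcr3, chrX:101734148-101734397, minus strand: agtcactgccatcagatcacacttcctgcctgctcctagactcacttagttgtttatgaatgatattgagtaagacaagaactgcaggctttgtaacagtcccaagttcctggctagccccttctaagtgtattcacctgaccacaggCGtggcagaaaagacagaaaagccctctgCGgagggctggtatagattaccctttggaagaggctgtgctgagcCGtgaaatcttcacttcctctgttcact
The Irak1 window holds 13 CpGs and that of Med12 holds 22, against 4 for Was and 3 each for Il2rg and Cxcr3. Of 1223 such windows on the X, 89.0% hold at least 1 CpG and 22.9% hold at least 13.

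In WT cells 9 of the 10 genes had a log2 enrichment above 0, from 0.52 at Foxp3 to 1.92 at Il2rg, and Was stood at -0.0022. In MD1 cells the 9 blood-restricted genes ranged from 0.44 to 2.31, whereas Irak1 was 14.8-fold lower than in WT. All 10 had a value in both genotypes, and no filter on low values was applied. Values are log2 enrichments, and differences are MD1 minus WT, so that 1 is a 2-fold difference. The median of the blood-restricted genes was 1.28 in WT cells and 1.68 in MD1 cells, and that of their differences was 0.63 (quartiles 0.56 and 0.70). Over the 770 X genes with values in both genotypes the medians were 0.84 and 1.40 and the median difference 0.55. Over 19836 autosomal genes they were -0.78, -0.90 and -0.27, and 31.0% of differences were positive. Of the 9 blood-restricted genes 7 had a positive difference (69.1% of X genes did), 1 was at least 2-fold higher (22.1% of X genes were) and none was at least 2-fold lower (18.3% of X genes were). These counts lie close to those of the X as a whole, and no difference from it was tested.

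**Figure D1:**
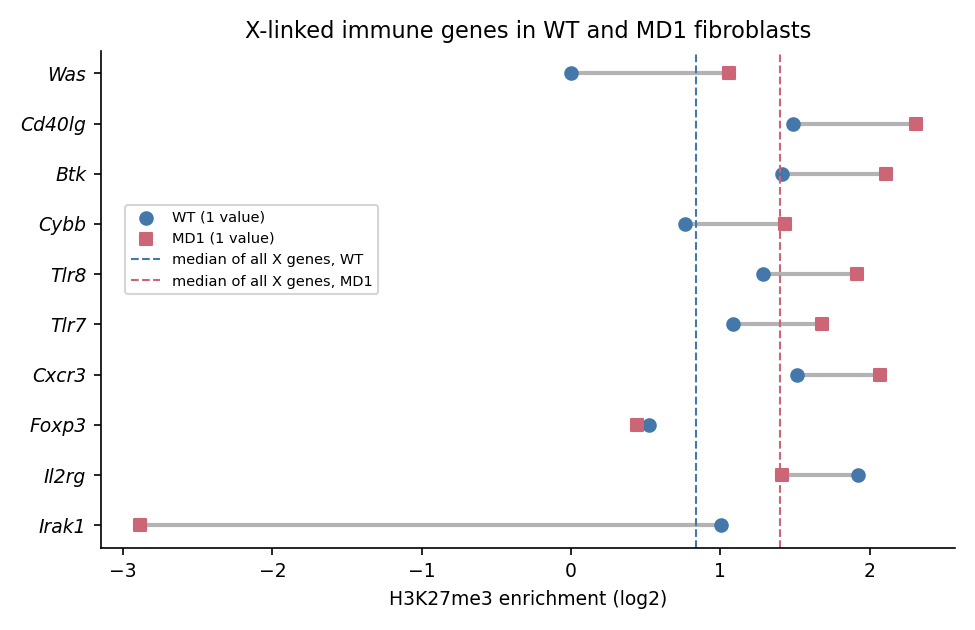
H3K27me3 enrichment (log2, x axis) of the 10 genes, ordered by difference, with 1 WT value (circle) and 1 MD1 value (square) each and the medians of all X genes as dashed lines. The blood-restricted genes lie between -0.0022 and 1.92 in WT and between 0.44 and 2.31 in MD1, and Irak1 goes from 1.001 to -2.89.

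In place of replicates, each difference was also set against 500 autosomal genes of similar mean level and length, here called like genes, whose standard deviation (SD) is given as a yardstick of scatter in these libraries. Short genes scatter more: over autosomal genes the SD of this level-matched difference was 0.86 in the shortest length quartile (up to 7060 bp) and 0.28 in the longest. By this measure Was, Cd40lg, Btk, Cybb, Tlr8 and Tlr7 were above their like genes by more than 1 SD, Il2rg was below by more than 1 SD, and Cxcr3 and Foxp3 lay within 1 SD. The share of all X genes past 1 SD was not counted, so these calls do not set the 9 genes apart from the X. The median level-matched difference was 0.50 for the 9 genes and 0.45 for all X genes. None of the 9 was 2-fold lower by this measure (17.4% of X genes were) and 1, Was, was 2-fold higher (19.1% of X genes were).

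The surface receptors and ligands began from the highest WT values of the set. Il2rg (X, 98459726 to 98463545, on mm9 as are all positions of table genes here) encodes the common gamma chain shared by the receptors for interleukin-2 and related cytokines. It had the highest WT value of the 10, 1.92 (percentile 94.7 of X genes), and an MD1 value of 1.41, so that the difference was -0.51. Relative to like genes this was -0.65 with an SD of 0.52. It is the blood-restricted gene with the lowest difference, although its MD1 value still lay at percentile 89.8 of autosomal genes.

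Cxcr3 (X, 98926875 to 98929486), a chemokine receptor of activated T cells, went from 1.51 to 2.07. Its difference of 0.56 was at the middle of the X, percentile 50.6, and as the shortest of the genes, 2612 bp, it had the widest yardstick, an SD of 0.54. Cd40lg (X, 54465320 to 54477219) encodes the T cell ligand that binds CD40 on B cells. Its WT value was 1.49 and its MD1 value 2.31, which was the top value of the 10 in MD1 (percentile 97.7 of autosomal genes), and the difference was 0.82.

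The 2 Toll-like receptor genes, which encode endosomal sensors of single-stranded RNA, lie side by side and had almost the same difference. Tlr7 (X, 163742858 to 163768503) went from 1.08 to 1.68 and Tlr8 (X, 163680664 to 163701720) from 1.28 to 1.92. The differences were 0.60 and 0.63, or 0.48 and 0.50 relative to like genes with an SD of 0.25 and 0.26. These are among the better measured values, since the genes span 25646 and 21057 bp.

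Irak1 (X, 71259253 to 71269260) encodes the kinase that carries the signal of Toll-like and interleukin-1 receptors from the adaptor MyD88 to TRAF6. In WT it resembled the receptors above it in the pathway, with a value of 1.001, percentile 58.5 of X genes and 84.7 of autosomal genes. In MD1 it stood at -2.89, percentile 5.52 of X genes and 26.0 of autosomal genes. The difference of -3.89 was -3.77 relative to like genes, whose SD was 0.50. It lay at percentile 3.05 of X genes, and 24 X genes, Irak1 included, and 18 autosomal genes had a difference as low. In lowest terms the deposited MD1 ratio of Irak1 is 4 to 29, against 237 to 122 in WT, so if these are read counts the MD1 value could rest on as few as 4 ChIP reads.

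Among the intracellular effectors, Was had the largest positive difference. Was (X, 7658592 to 7667617), an actin regulator of blood cells, had the lowest WT value of the 10, -0.0022, and stood at 1.06 in MD1. The difference of 1.06 is a 2.08-fold higher enrichment, the only one of the 10 past the 2-fold limit upwards, and was 1.05 relative to like genes (SD 0.37). Btk (X, 131076880 to 131117679), a kinase of the B cell receptor pathway, went from 1.41 to 2.11. Its difference of 0.70 was 0.55 relative to like genes with an SD of 0.25. Cybb (X, 9012380 to 9046450), the catalytic subunit of the phagocyte NADPH oxidase, went from 0.76 to 1.43, a difference of 0.67. Was thus reached in MD1 a value still below those of Btk and Cybb.

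Foxp3 (X, 7156802 to 7172369), the transcription factor of regulatory T cells, differed least. It had 0.52 in WT cells and 0.44 in MD1 cells, and the difference of -0.085 was well within the SD of 0.38 of its like genes. Its MD1 value was at percentile 27.5 of X genes, the lowest of the blood-restricted genes. Foxp3 is the gene of the 10 whose interval overlaps other listed genes, Ppp1r3fos at its start (difference 0.44) and Ccdc22 at its end (-0.51). ChIP reads carry no strand, so these 3 genes can share reads.

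Irak1 and the blood-restricted genes were thus near in WT and far apart in MD1. Irak1 minus the median of the blood-restricted genes was -0.28 on the log2 scale in WT and -4.57 in MD1, where Irak1 was 23.8-fold lower. The gap between its difference and their median difference was -4.52. The contrast sets 1 gene against 9, so it has no spread on the Irak1 side. In the plane of WT and MD1 values, the 3 X genes nearest to Irak1 were 1810030O07Rik (0.92 and -2.72), Pin4, a peptidyl-prolyl isomerase gene (1.18 and -2.72), and Hcfc1, a transcriptional coregulator gene (0.97 and -3.22). The 3 nearest to the median point of the blood-restricted genes were Pdk3, a pyruvate dehydrogenase kinase gene (1.29 and 1.68), Gpr119, a G protein-coupled receptor gene (1.30 and 1.73), and Rragb, a Rag GTPase gene (1.22 and 1.71). Distances were from 0.19 to 0.33 for the former and from 0.0044 to 0.065 for the latter, over 2 values per gene.

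The nearest genes of 4 blood-restricted members, Btk, Was, Il2rg and Cxcr3, included ones that were much lower in MD1 than the member. Btk has such a gene on both sides. Timm8a1, encoding a mitochondrial import protein, lies 711 bp away on 1 side and went from -0.48 to -3.46. Rpl36a, a ribosomal protein gene 2513 bp away on the other side, went from 0.46 to -3.69. The differences of -2.99 and -4.15 flank the 0.70 of Btk, which covers 40800 bp.

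Was, Il2rg and Cxcr3 have 1 on 1 side, at different distances. Suv39h1, encoding a histone H3 lysine 9 methyltransferase, lies 6705 bp before Was and went from -0.46 to -2.59. Med12, 5884 bp after Il2rg, went from 1.55 to -2.15, while Gm614, 394 bp before it, differed by -0.59, much as Il2rg did. Ogt, encoding the enzyme that adds O-linked N-acetylglucosamine to proteins, is the nearest gene before Cxcr3, 47184 bp away, and went from 1.22 to -3.50. Of 16 distinct nearest neighbours of the blood-restricted genes, members left out, these 5 were at least 2-fold lower (31.3%, against 18.3% of X genes). None was at least 2-fold higher (22.1% of X genes were).

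Around the other blood-restricted genes the neighbours differed in the same direction as the member, Foxp3 excepted. Xk and Dynlt3 beside Cybb differed by 0.67 and 0.28, and Gm14718 and Arhgef6 beside Cd40lg by 0.29 and 0.97. Tmsb4x and Prps2, which border the pair of Toll-like receptor genes, differed by 0.68 and 0.69. Gm6787 after Was differed by 0.87 and Nhsl2 after Cxcr3 by 0.27. Before Irak1 the nearest gene was also much lower: Hcfc1, 47556 bp away, went from 0.97 to -3.22, so that the difference was -4.19. Renbp, 83063 bp before Irak1, differed by -0.70, and the cone opsin gene Opn1mw, 103544 bp after it, by 0.30.

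**Figure D2:**
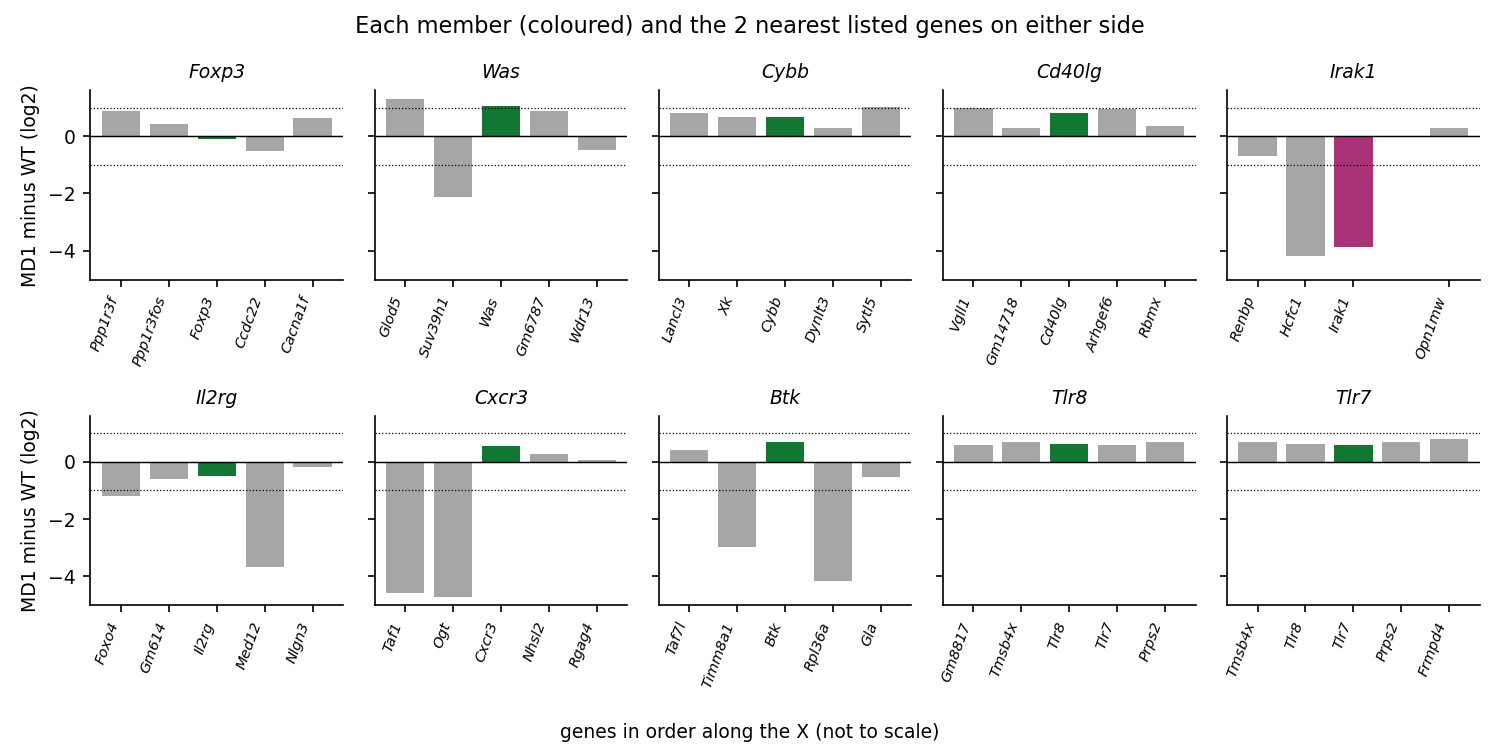
MD1 minus WT enrichment (log2, y axis) of each of the 10 genes (coloured bar) and of the 2 nearest genes with values on either side (grey), in order along the X and not to scale, with dotted lines at the 2-fold limits. Btk, at 0.70, stands between bars of -2.99 and -4.15, and Irak1, at -3.89, stands after Hcfc1 at -4.19, with 1 place in its panel left empty.

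Other X-linked immune genes, listed from general knowledge of where they are used, were taken as 2 lists. Both lists were chosen with earlier results of these data known. Their counts are therefore description and not independent support. Of 13 further blood-restricted genes, 1 was lower by 2-fold or more (7.69%, against 18.3% of X genes) and 2 were higher (15.4%, against 22.1%). Their median was 1.06 in WT cells and 1.74 in MD1 cells, and the median of their differences, 0.55, was that of all X genes. Sh2d1a, encoding the lymphocyte adaptor SAP, went from 0.38 to 1.85, and Vsig4, a complement receptor gene of macrophages, from 0.87 to 1.95. The lower gene was Pim2, encoding a serine/threonine kinase, which went from -0.13 to -1.21, a difference of -1.08. Gata1, the erythroid transcription factor gene, went from 1.52 to 2.40. Tlr13, a further Toll-like receptor gene, differed by 0.64, close to Tlr7 and Tlr8, and Cfp, encoding the complement factor properdin, by 0.84. Together with the 9 members, 1 of 22 blood-restricted X immune genes was past the limit downwards (4.55%, against 18.3% of X genes) and 3 upwards (13.6%, against 22.1%).

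Of 14 broadly expressed X genes listed for links to immunity or immunodeficiency, 9 (64.3%, against 18.3% of X genes) were lower by 2-fold or more. They are called immune genes here for short. In the other direction 2 were higher (14.3%, against 22.1% of X genes). Their median was 0.56 in WT cells and -1.43 in MD1 cells. The median of the differences was -2.29 (quartiles -3.02 and -0.010). The largest differences were at Atp6ap1, a proton pump accessory subunit gene (-5.69), Msn, encoding the membrane-cytoskeleton linker moesin (-3.57), Ssr4, encoding a subunit of the translocon-associated complex (-3.26), and Xiap, an inhibitor of apoptosis gene (-3.04). The MD1 ratios of Atp6ap1 and Ssr4 in lowest terms were 2 to 51 and 4 to 15, whereas those of Msn and Xiap were 74 to 615 and 35 to 347. In the pathway of Irak1, Ikbkg, the NEMO subunit of the kinase complex that activates NF-kappa B, went from 0.79 to -2.17, and Tab3, an adaptor of the kinase TAK1, from 0.70 to -0.31. The 2 higher genes, named after their values were seen, were the cytokine receptor gene Il13ra1 (0.41 to 1.73) and Dock11, encoding an activator of Cdc42 (0.018 to 1.46), which are adjacent rows of the table. Elf4 and Tsc22d3, also named afterwards, differed by 0.16 and 0.36. Breadth of expression as listed here therefore did not go with a lower value at every gene.

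**Figure D3:**
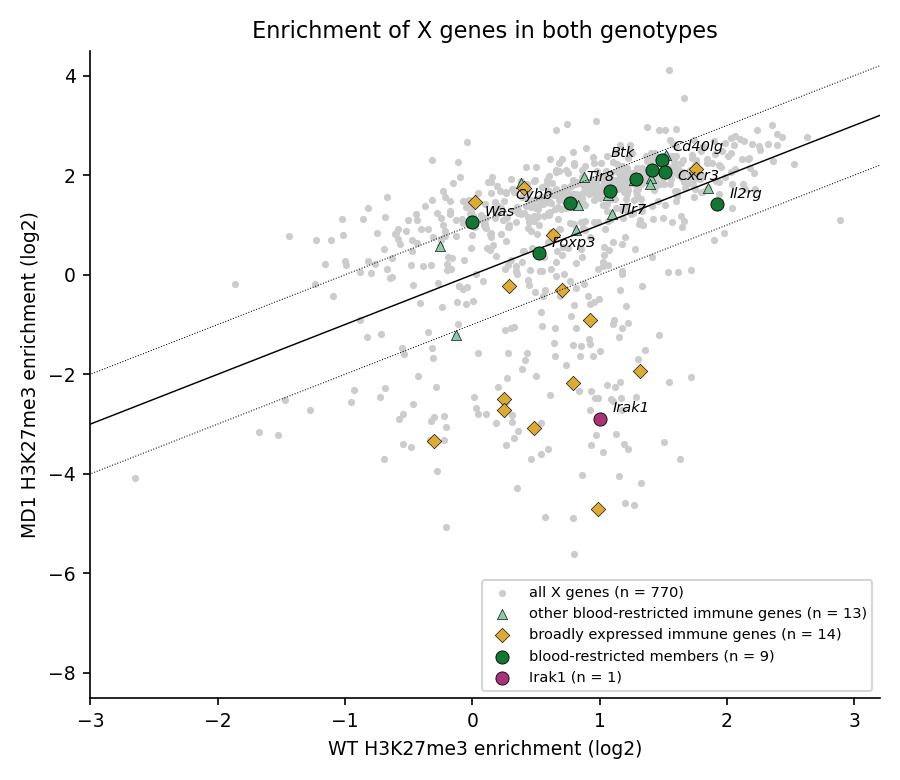
WT (x axis) and MD1 (y axis) H3K27me3 enrichment (log2) of 770 X genes in grey, with the 9 blood-restricted genes, Irak1, 13 further blood-restricted and 14 broadly expressed immune genes marked. The solid line marks equal values and the dotted lines 2-fold differences; 9 of the 14 broadly expressed genes lie on or under the lower dotted line.

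Autosomal partners of the same pathways show what these libraries gave away from the X. The autosomal lists of partners and pan-blood genes were likewise chosen with earlier results of these data known. Of 20 partners listed as blood-restricted none was 2-fold lower or higher, against 20.4% and 1.61% of autosomal genes. Their median was 0.59 in WT cells and 0.65 in MD1 cells. WT values ran up to 1.89 at Tlr9, but Wipf1 (-2.15) and Cyba (-1.71) had little mark. The listing was not checked against RNA. The median of their differences was -0.089, with the largest at Syk, a kinase upstream of Btk (-0.91), Cd40, the receptor for the Cd40lg product (0.69), Unc93b1, which escorts Toll-like receptors to endosomes (0.64), and the transcription factor gene Ikzf2 (-0.43). Of 20 pan-blood genes none was past the limits either, and their median went from 0.93 to 1.14 with a median difference of 0.21. The largest were at Cd79a (-0.86) and Coro1a (0.67), then Lyz2 (0.54) and Cd8a (0.51). The median difference of the X-linked blood-restricted members, 0.63, was above both, as was that of all X genes, 0.55.

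The broadly expressed autosomal partners had little mark in either genotype, their medians being -2.16 (WT) and -2.93 (MD1). Of 14, 5 were at least 2-fold lower (35.7%, against 20.4% of autosomal genes) and none higher (1.61% of autosomal genes were). Relative to like genes 1 was lower (3.42% of autosomal genes were), the NF-kappa B subunit gene Rela. Its difference was -3.15, or -1.59 relative to like genes with an SD of 0.72. The MD1 ratio of Rela in lowest terms was 3 to 127, so it may rest on few reads. Il6st, Map3k7 and Wasl differed by -1.89, -1.28 and -1.27, and these became -0.67, -0.36 and 0.015 beside like genes. Within the kinase family of Irak1, Irak4 went from -1.29 to -1.52 and Irak2 from -0.72 to -0.71. The WT value of Irak1, 1.001, was above that of each of the 14 partners, which ran from -2.86 to -0.72. Its MD1 value of -2.89 lay close to their MD1 median.

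**Figure D4:**
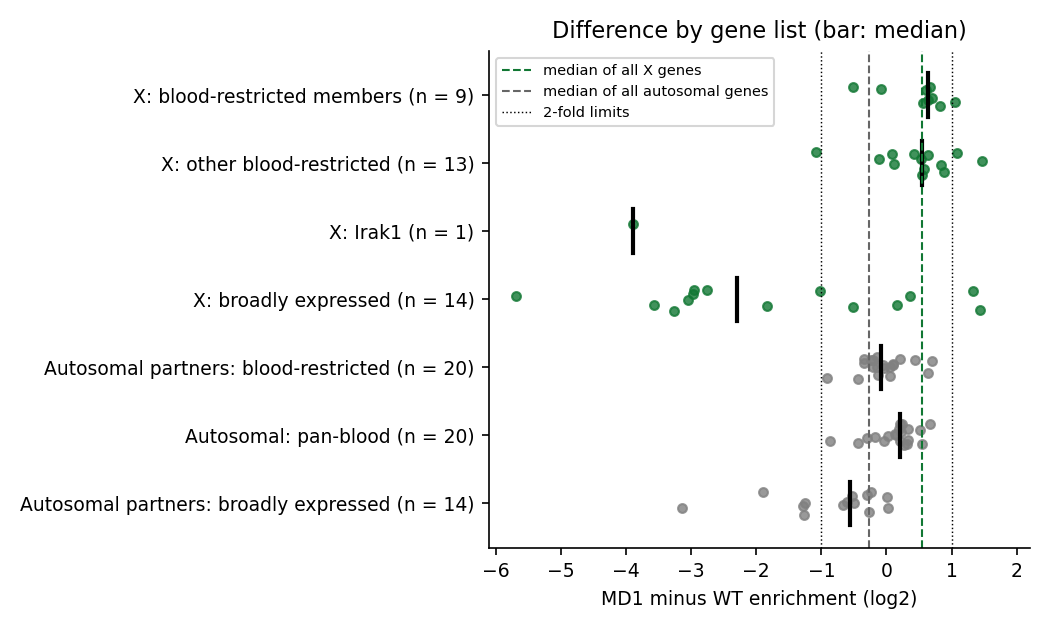
MD1 minus WT enrichment (log2, x axis) of each gene (point) by list, with the list's median as a black bar, the medians of all X and all autosomal genes as dashed lines and the 2-fold limits dotted; vertical position within a list is arbitrary. The blood-restricted members centre on 0.63, the broadly expressed X genes on -2.29 and the autosomal blood-restricted partners on -0.089.

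The tissue label was set against marker genes, as levels of a histone mark and not of RNA. The 12 fibroblast markers had medians of -2.90 (WT) and -4.24 (MD1), and the 10 blood markers had medians of 0.72 and 1.01. Of the fibroblast markers 7 were at least 2-fold lower (58.3%, against 20.4% of autosomal genes). Relative to like genes none was lower (3.42% of autosomal genes were) and 1 of 12 was higher (628 of 19836 autosomal genes were). The higher one was Pdgfrb (1.11), named after its value was seen. These calls depend on the matching. With like genes matched on WT value in place of mean level, Tagln was lower (-1.19). Twist1 (1.41), Pdgfrb (1.39) and Thy1 (1.24) were then higher, and the share of autosomal genes was not counted for that matching. Before matching, the largest differences were at Fn1 (-2.19), Tagln (-2.16), Vim (-2.10) and Prrx1 (-1.93). The 10 blood markers are all among the 20 pan-blood genes above, so they add no separate evidence; Csf1r, for example, differed by 0.33. Smchd1 itself stood at -2.44 in WT and -3.47 in MD1 (0.033 relative to like genes), which does not check its genotype, and Xist, whose RNA coats the inactive X, at -0.47 and -0.21.

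Promoter CpG content played no part in the choice of the genes. It is expressed as observed over expected CpGs, the number of CpGs divided by that expected from the C and G content of the window, averaged where RefSeq gives several starts. RefSeq promoters were matched for 8 of the 10 genes and for 594 of the 770 X genes. Irak1 had the highest ratio of the 8, 0.73 (percentile 78.7 of X genes). Was, Btk, Cxcr3, Il2rg, Tlr8 and Cybb ranged from 0.14 to 0.22, percentiles 12.2 to 21.5. Foxp3 stood between, at 0.61, and is the blood-restricted gene with the difference nearest to 0.

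The neighbours of Btk, Was, Il2rg and Cxcr3 that were lower in MD1 had CpG-rich promoters, with ratios of 0.98 for Timm8a1, 0.77 for Rpl36a, 0.83 for Suv39h1, 0.82 for Med12 and 0.93 for Ogt. A CpG-rich promoter did not always go with a lower value, as Xk and Tmsb4x had ratios of 0.82 and 0.95 and differences of 0.67 and 0.68. Over the X, 92 of 218 genes (42.2%) with a ratio of at least 0.6 were at least 2-fold lower in MD1, against 27 of 376 (7.18%) with a lower ratio. At least 2-fold higher were 19 (8.72%) and 97 (25.8%). Among the 17 blood-restricted immune genes with a promoter entry 15 had a ratio under 0.6, and none of these 15 was 2-fold lower. Among the 15 broadly expressed ones, Irak1 included, 7 of 9 with a ratio of at least 0.6 were lower, as were 3 of 6 with a ratio under it.

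**Figure D5:**
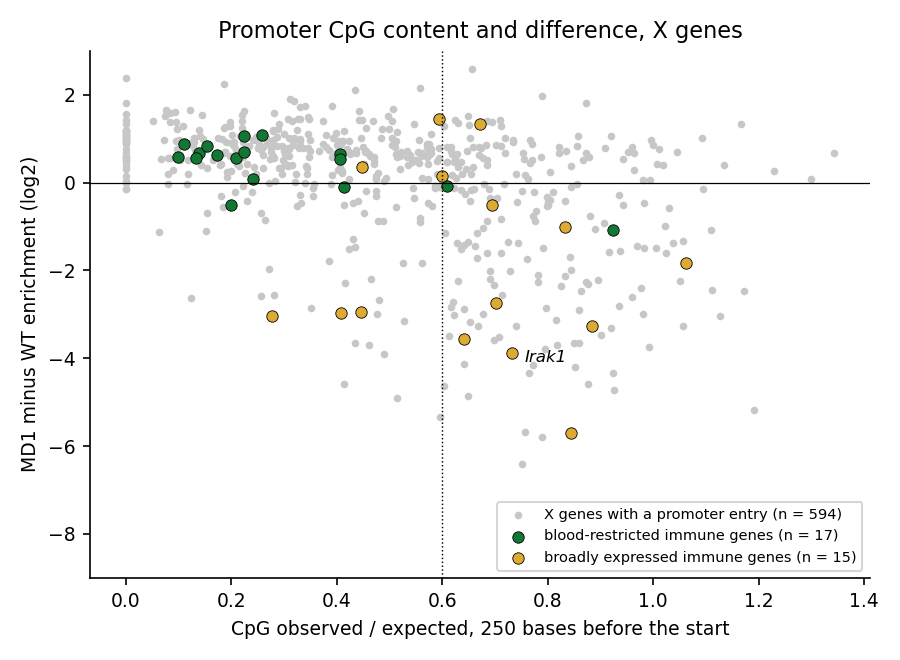
Observed over expected CpGs in the 250 bases before the start (x axis) and MD1 minus WT enrichment (log2, y axis) of 594 X genes, with 17 blood-restricted and 15 broadly expressed immune genes marked and a dotted line at 0.6. Most blood-restricted genes lie at upper left, and Irak1 lies at 0.73 and -3.89.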

How the data were processed

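The 4 libraries are 1 H3K27me3 ChIP and 1 input for each of 2 genotypes. The authors deposited 1 table with 1 log2 H3K27me3 enrichment per gene and genotype, per the file headers, on build mm9 per the submitters' processing notes. The sources used here do not name the aligner, the counting, the filters or the denominator. Nearly all deposited log2 values (99.98% for WT, 99.95% for MD1, at a tolerance of 1e-11) are a per-genotype constant added to the log2 of 1 whole number over another, both up to 20000. Such a ratio is known in lowest terms, so the depth is unknown and no counting interval is given.

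Table starts count from 0 (end minus start equalled the RefSeq length for 346 of 841 X genes found there, and end minus start plus 1 for 36) and are printed 1-based. Differences, medians, counts past 2-fold and level-matched differences (500 autosomal genes, same length quartile) were computed with Python 3.11.15, numpy 2.4.6 and pandas 2.3.3. The matching was run on simulated data with the same scatter for genes of all lengths. Recovery of the set changes was required there only for matching on the WT value. It was not required for matching on mean level, which the text reports. Genes with values in both genotypes were compared. Members and lists were chosen with earlier results of these data known. The text names the 10 members, Smchd1, Xist, the up to 4 largest absolute differences of each list, direct partners, nearest neighbours and the 3 nearest genes in the plane of values. Exceptions are stated, and some genes that this rule names are left out here. The limit of 0.6 on the CpG ratio was chosen after the table of values was seen. Alternatives were pseudocounts, a filter, centring, level matching, other limits, means, and leaving out overlapping genes or small denominators.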

Additional observations from a re-analysis of the deposited data

How the results depend on the processing

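No paired analysis was possible because each genotype had 1 ChIP library, which also leaves no replicate to leave out. The median difference of the blood-restricted members ran from 0.45 to 0.90 over 9 alternatives and that of the 13 further blood-restricted genes from 0.40 to 0.82. No blood-restricted member was past the limit downwards under 10 alternatives. These include limits of 1.5-fold (160 of 770 X genes were lower) and 3-fold (109 of 770). With a pseudocount of 1 on the linear enrichment, the Irak1 difference was -1.40, its gap to the blood-restricted median -1.86 and the median of the broadly expressed X immune genes -0.81, all negative as before. That median was -1.74 as a mean, and -1.84 both without overlapping genes and with denominators of at least 20. The 1 of 9 blood-restricted members at least 2-fold higher became 0 with the pseudocount of 1 (47 of 770 X genes). It became 2 when centred on the autosomal median (288 of 770 X genes). At a 1.5-fold limit the count was 6 of 9 (367 of 770 X genes) and at a 3-fold limit 0 (39 of 770). Over all X genes, the direction with more genes turned under 3 settings, with 63 lower and 47 higher for the pseudocount of 1, 109 and 39 at 3-fold, and 105 and 94 with denominators of at least 20. The higher ones numbered 288 when centred and 367 at 1.5-fold. The depth is unknown, and MD1 values with small numerators in lowest terms, such as those of Irak1 and Atp6ap1, may rest on few reads.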
